A study of Bos taurus with 45 samples.

Results

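Among bovine embryos cultured with vehicle, those whose sister part gave a pregnancy that was present at day 30 and day 60 of gestation were compared with those whose sister part gave a pregnancy present at day 30 and gone by day 60. The first group is called maintained and the second lost. The comparison holds 4 maintained embryos (replicates 4, 5, 6 and 7) and 4 lost embryos (replicates 2, 3, 4 and 6), chosen by their labels and by a library total of 1000000 counts or more, of 45 embryos in the series. The labels give 5 vehicle embryos to each outcome, and 1 library of each was left out by the minimum total, maintained replicate 8 with 137808 counts and lost replicate 5 with 687331 counts.

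All embryos of the series were produced in vitro with X-sorted sperm, which gives mostly female embryos, and were kept in a serum-free medium that held vehicle or 10 ng/ml of the cytokine CSF2 from day 5 to day 7. On day 7 each blastocyst was cut with a blade into 2 parts. The less intact or smaller part was sequenced when the cut was uneven, and the other was transferred to a recipient cow. The outcome therefore belongs to the sister part and to its recipient, and not to the cells that were sequenced. Maintained and lost vehicle embryos share the sperm sorting, the vehicle and the cutting, and the labels record no difference between them other than the outcome.

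A day 7 blastocyst consists of the trophectoderm, the outer layer that forms most of the placenta, and the inner cell mass, which forms the fetus and the yolk sac. The blastocyst of cattle hatches, elongates over the following weeks and then attaches to the uterus. Between the examinations the placentomes, the attachment points through which the fetus is nourished, take shape. The comparison asks whether the transcript levels of the blastocyst differ between embryos of these pregnancies already at day 7. In such a bulk sample, fewer cells of a type and less RNA per cell cannot be told apart. Genes are given by their Ensembl identifiers, because the files do not pair them with names and 0 of 24616 identifiers matched the supplied table of symbols. The labelled cell types could therefore not be set against their markers, and no lineage or pathway list is described.

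No gene separated the groups beyond the spread between embryos in the main test. Of 3019 genes tested, 0 (0%) were called higher or lower in maintained embryos at a Benjamini-Hochberg adjusted p below 0.05, and the lowest adjusted p was 1 to the digits given (edgeR quasi-likelihood test). At an unadjusted p below 0.05 there were 38 genes, 30 higher and 8 lower in maintained embryos. That is fewer than evenly spread p-values would give. Genes are not independent, so whether the main test was conservative here is not settled by this count. The number depended on the setting. It was 291 (170 higher, 121 lower) in edgeR with bias-adjusted deviance, a setting added after seeing the data. It was 127 in DESeq2 and 253 in limma voom. The balance of 30 to 8 in the main test turned without maintained replicate 7 (24 higher and 85 lower) or 5 (22 and 40). It kept its direction without maintained replicate 4 (21 and 7) or 6 (22 and 10). The same held without lost replicates 2, 3, 4 and 6 in turn, with 103 and 8, 72 and 8, 36 and 7, and 81 and 8. The median log2 change over all tested genes was -0.02, with 1492 genes on the higher and 1527 on the lower side. Other tools called a few genes. DESeq2 called 4 genes higher (0.132% of those tested) and 2 lower (0.0662%), and limma voom with sample quality weights called 3 higher (0.0994%) and 4 lower (0.132%). DESeq2 and limma voom had 4 calls in common. None of the calls of either tool was a gene read in all 8 libraries, where a gene is said to be read in a library that holds 5 or more counts of it.

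The 8 libraries varied within each group in the number of genes read. Totals were 5016623, 7718254, 6139032 and 6140631 counts in maintained replicates 4, 5, 6 and 7. Totals were 6381858, 6304431, 4317470 and 7161723 counts in lost replicates 2, 3, 4 and 6. The groups overlapped. The libraries had been chosen by their total, so these values are a description. With the 2 shallow vehicle libraries included, the mean total was 59907 counts higher in maintained embryos (two-sided exact permutation test, p = 0.976).

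Maintained embryos fell apart into libraries with many and with few genes. Replicates 5 and 7 read 5055 and 5569 genes, whereas replicates 4 and 6 read 2054 and 2191. Lost replicates 2, 3 and 6 read 4153, 3481 and 3753 genes, and lost replicate 4 read 1585. Maintained embryos had a mean of 3717 ± 1854 genes (SD, n = 4) and lost embryos one of 3243 ± 1139 genes (SD, n = 4), and the groups overlapped (two-sided exact permutation test, p = 0.686, with a smallest possible p of 0.0286). Thinned to the smallest total of 4317470 counts, maintained replicates 4, 5, 6 and 7 held an expected 2026, 4871, 2127 and 5441 genes. The 14 deep not established vehicle libraries, from embryos with no pregnancy at day 30, ranged from 1646 to 5190 genes with a median of 3580. The 8 libraries thus lay within that range apart from maintained replicate 7 above it and lost replicate 4 below it.

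The libraries with few genes were also those in which a few genes held more of the counts. The 100 most abundant genes of each library held 49.6%, 41.5%, 51.2% and 39.1% of the counts in maintained replicates 4, 5, 6 and 7. They held 38.3%, 37%, 56.1% and 37.6% in lost replicates 2, 3, 4 and 6. Lost replicate 4 was above every other library of the 8, and the remaining lost embryos were below every maintained embryo. Maintained embryos had a mean of 45.3% ± 5.95 (SD, n = 4) and lost embryos one of 42.3% ± 9.24 (SD, n = 4; two-sided exact permutation test, p = 0.686). Over the 3 library measures, the total included, the Benjamini-Hochberg adjusted p was 0.8 for each. Without lost replicate 4, the maintained mean was higher by 7.7 percentage points (two-sided exact permutation test, p = 0.0571), against 3.09 with it. This p is the smallest that the test can give with a lost library left out, so it could not fall below 0.05. With any other of the 8 libraries left out, the difference ran from 1.14 to 5.17 percentage points (same test, p from 0.571 to 0.971).

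**Figure D1:**
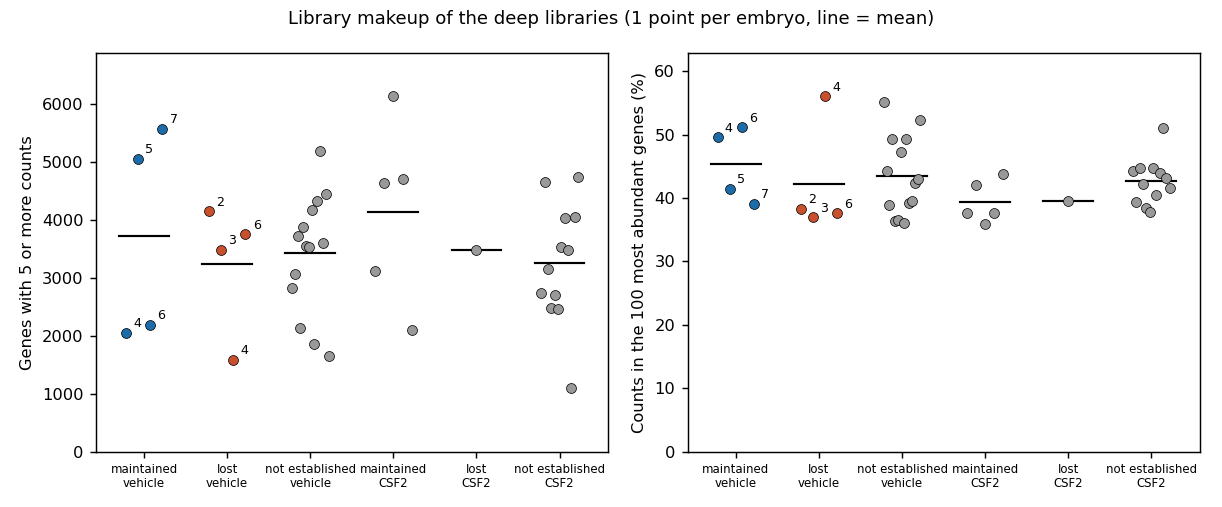
Number of genes with 5 or more counts (left) and percent of counts in the 100 most abundant genes of each library (right), with 1 point per embryo for the 40 libraries above 1000000 counts, lines at the group means and replicate numbers beside the 8 libraries compared. Maintained replicates 5 and 7 read 5055 and 5569 genes and replicates 4 and 6 read 2054 and 2191, and lost replicate 4 has the fewest genes and the highest share of the 8 libraries compared.

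Few genes were read throughout. Of the 24616 genes, 8931 were read in at least 1 of the 8 libraries, 2677 in exactly 1 and 417 in all 8. The 417 genes read in all 8 libraries held 53.1% of all counts, with a median of 2706.5 counts where read. Genes read in 1 library had a median of 191 counts in that library, well above the minimum of 5. Where a gene was read, it was thus commonly present far above the minimum. Lower counts also occurred. Lost replicate 6 held 1 or more counts of 4705 genes, 5 or more of 3753 and 20 or more of 3312. In lost replicate 4 these numbers were 1910, 1585 and 1404.

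Genes read in a single library came mostly from the libraries with many genes. There were 738 of them in maintained replicate 7 and 627 in maintained replicate 5, against 131 and 111 in maintained replicates 4 and 6. Lost replicates 2, 3, 4 and 6 had 384, 270, 105 and 311.

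Detection was then set side by side for the outcome groups. Of the 8931 genes read in at least 1 of the 8 libraries, 5353 were read in both groups. Another 2220 were read in 1 or more maintained embryos and in no lost embryo, and for 1358 the reverse held. Genes read in 3 or 4 maintained and in 0 or 1 lost embryos numbered 398, and those read in 3 or 4 lost and in 0 or 1 maintained embryos numbered 213. These sets were defined by detection in the same libraries, so a library that reads many genes holds much of them by construction. Of the 2220 genes found in maintained embryos alone, 1967 were read in replicate 5 or 7. Of the 398 genes 359 were read in both of these replicates. Maintained replicates 4, 5, 6 and 7 read 56%, 94.5%, 64.3% and 95.7% of the 398 genes. They read 32.9%, 73.5%, 35.8% and 80.5% of the 5353 genes read in both groups. Lost replicates 2, 3, 4 and 6 read 93%, 87.8%, 43.7% and 87.8% of the 213 genes. They read 66.7%, 56.8%, 26.3% and 60.7% of the 5353. Whether the libraries that read the most genes account for the larger maintained counts was not tested.

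At the far ends, 9 genes were read in 4 of 4 maintained and 0 of 4 lost embryos, and 5 genes in 0 of 4 maintained and 4 of 4 lost embryos. Among embryos outside the comparison these genes were read in some libraries of both outcomes. The 9 genes were read in 53.3% of gene and library pairs in the 5 maintained CSF2 embryos, in 33.3% in the 1 lost CSF2 embryo and in 49.2% in the 14 not established vehicle embryos. The 5 genes were read in 40% of pairs in maintained CSF2 embryos, in 20% in the lost CSF2 embryo and in 30% in not established vehicle embryos. For all tested genes the corresponding values were 70.5%, 65.8% and 63.5%. The tested genes include the 417 read in all 8 libraries, whereas the 9 and the 5 genes were chosen as read in 4 of 8. The lower values of the 9 and the 5 genes are therefore not set against a like set. Single maintained CSF2 libraries read from 20% to 80% of the 5 genes, none of which any maintained vehicle embryo had read.

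**Figure D2:**
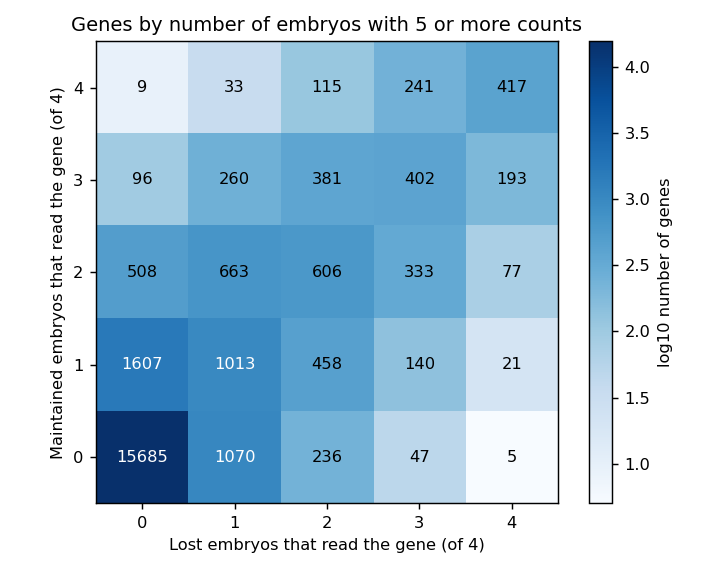
Number of genes by how many of the 4 maintained (vertical) and of the 4 lost (horizontal) embryos held 5 or more counts, shaded by the log10 number of genes. The 417 genes in the upper right were read in all 8 embryos, and the corners with 9 and 5 genes are those read throughout 1 group and in none of the other.

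The identifiers that stood furthest from no change were the 2 with the smallest p in each direction. None of these 4 passed the main test, with an adjusted p of 1 each (edgeR). In each of them the groups did not overlap, and the group with the lower level had 0 or 1 count in all. They thus passed the filter of 10 or more counts in 4 of the 8 libraries only through the group in which they were high, and a gene that does so has to differ. Their values, p and calls are therefore a description.

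ENSBTAG00000012272 was at 769, 149, 4.89 and 114 CPM (counts per 1000000 counts of the library) in maintained replicates 4, 5, 6 and 7, and had no count in the 4 lost embryos. All maintained embryos read it, although replicate 4 held 74.1% of their summed CPM and replicate 6 had 30 counts. Against a floor of 3 counts over the lost group, the pooled maintained level was at least 1850-fold higher, a bound that covers counting error only. The maintained mean was 259 ± 345 CPM (SD, n = 4; unadjusted p = 0.00614, edgeR). limma voom called this gene (adjusted p = 0.0106), as did DESeq2 (adjusted p = 1e-40). The DESeq2 call came with a fitted log2 change of 50.85, against 13.72 in edgeR and 10.57 in limma voom, a size that no count here can give, so its p is not usable as a measure of strength.

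ENSBTAG00000014626 was at 4.98, 94.7, 49.8 and 277 CPM in maintained replicates 4, 5, 6 and 7, again with no count in the 4 lost embryos. Replicate 7 was the highest and held 65% of the summed CPM, and replicate 4 was the lowest, the reverse of their order for the previous gene. The pooled maintained level was at least 891-fold higher than the floor of 3 counts over the lost group, which covers counting error only. The mean was 107 ± 120 CPM (SD, n = 4; unadjusted p = 0.00806, edgeR). The gene was called by limma voom (adjusted p = 0.0106) and by DESeq2 (adjusted p = 1.03e-76), the latter again with an unusable log2 change of 51.79, against 12.29 in edgeR.

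ENSBTAG00000017566 was at 9.56, 138, 184 and 219 CPM in lost replicates 2, 3, 4 and 6, and had no count in the 4 maintained embryos. Lost replicate 2 was well below the others, which were within a narrow band. The pooled lost level was at least 1140-fold higher than the floor of 3 counts over the maintained group, which covers counting error only. The lost mean was 138 ± 91.7 CPM (SD, n = 4; unadjusted p = 0.00615, edgeR). limma voom gave an adjusted p of 0.0433 and DESeq2 one of 2.41e-19, with a log2 change of -27.55 against -12.61 in edgeR and -9.69 in limma voom. The DESeq2 change is again of a size that no count here can give, so its p is not usable as a measure of strength.

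ENSBTAG00000006471 was at 221, 198, 855 and 306 CPM in lost replicates 2, 3, 4 and 6. Maintained replicate 7 had 1 count, or 0.163 CPM, and the other maintained embryos had none. All 4 lost embryos were far above it, and replicate 4 held 54.1% of their summed CPM. The ratio of the pooled levels was 8840, with an exact 95% interval from 1590 to 349000 that covers counting error only. The lost mean was 395 ± 310 CPM (SD, n = 4; unadjusted p = 0.0113, edgeR). limma voom called the gene (adjusted p = 0.000306), and DESeq2 did not (adjusted p = 0.0566).

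In embryos outside the comparison, the levels of these 4 identifiers ran from no count to those of the higher group. ENSBTAG00000012272 was read in 6 of 14 not established vehicle embryos, with up to 237 CPM, in 2 of 5 maintained CSF2 embryos, with up to 123 CPM, and not in the lost CSF2 embryo. ENSBTAG00000014626 was read in 10 of 14 not established vehicle embryos, with up to 394 CPM, in 4 of 5 maintained CSF2 embryos, with up to 292 CPM, and not in the lost CSF2 embryo. ENSBTAG00000017566 was read in 11 of 14 not established vehicle embryos, with up to 850 CPM, above every lost vehicle embryo, in 2 of 5 maintained CSF2 embryos, with up to 218 CPM, and stood at 374 CPM in the lost CSF2 embryo. For these 3 genes the lost CSF2 embryo was on the side of the lost vehicle embryos, while some maintained CSF2 embryos were on each side. ENSBTAG00000006471 had no count in the lost CSF2 embryo, unlike the lost vehicle embryos. It was read in 1 of 5 maintained CSF2 embryos, at 6.06 CPM, and in 4 of 14 not established vehicle embryos, with up to 62.1 CPM. In the 12 deep not established CSF2 embryos it was read in 6, with up to 349 CPM, which is within the range of the lost vehicle embryos. The other 3 identifiers, in the order above, were read in 3, 6 and 5 of these 12, with up to 357, 232 and 195 CPM. With 1 lost CSF2 library, no test of the outcome among CSF2 embryos was made.

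**Figure D3:**
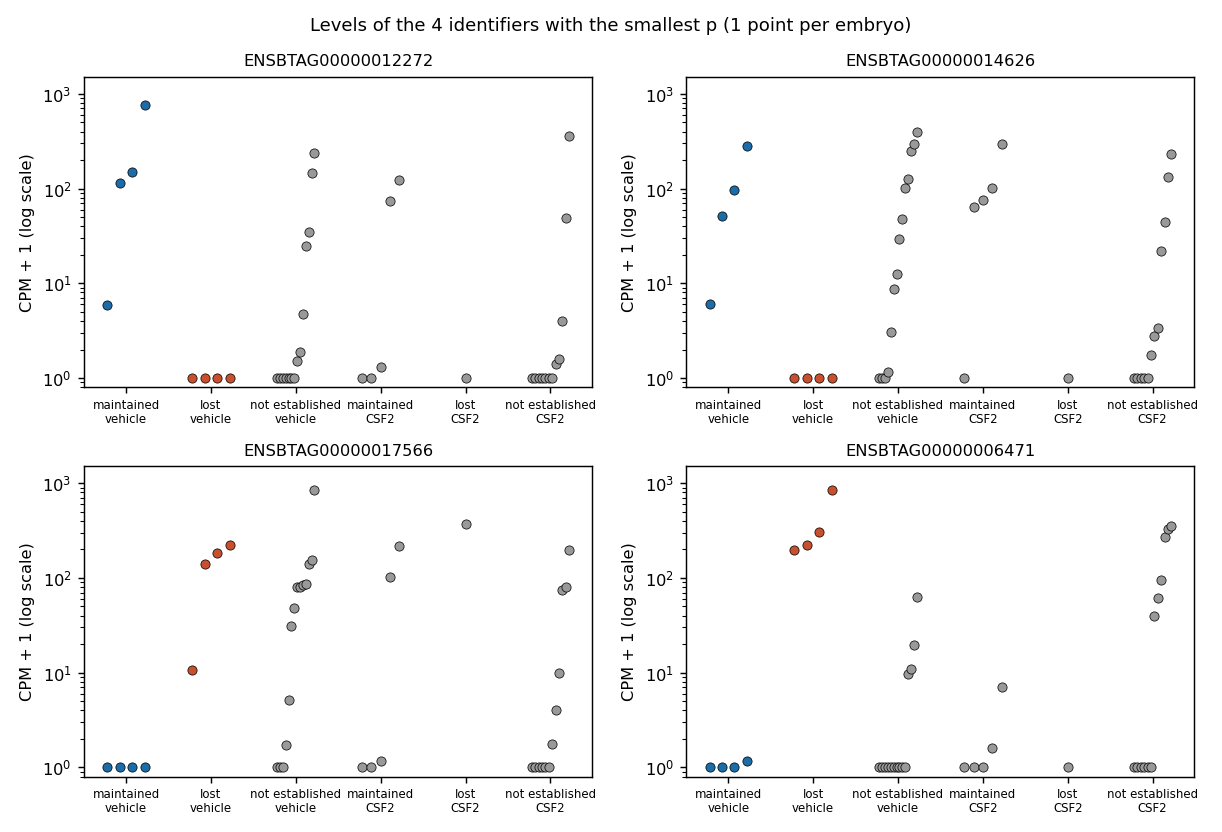
Level of the 4 identifiers with the smallest p, as CPM + 1 on a log scale, with 1 point per embryo for the 40 libraries above 1000000 counts, ordered by level within a group, so that a library without counts is at 1. The groups compared do not overlap in any panel, and the not established embryos (14 vehicle, 12 CSF2) span both levels.

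Genes whose groups did not overlap were counted over the whole table with CPM scaled by TMM, edgeR's trimmed mean of M-values. In 39 genes (1.29% of those tested) all 4 maintained embryos were above all 4 lost embryos, and in 35 genes (1.16%) all were below. With CPM of the library total the numbers were 35 and 43, so which direction held more genes turned with the scaling. Under random group labels, a gene without ties separates fully in either direction with a chance of 0.0286, the smallest possible p of the exact permutation test above. The shares of both directions added up to less than this chance with either scaling. Ties between libraries without counts lower the chance, and genes are not independent, so no test was made. The values of these genes are therefore a description. The gap between the nearest embryos of the groups had a median of 1.26 on the log2 scale in the genes higher in maintained embryos and 0.46 in those lower. It was above 1 in 23 of the 39 and 12 of the 35 genes. In 2 genes of each direction the lower group had no count at all, and 10 of the 39 and 11 of the 35 were read in all 8 libraries. Of the 7 limma voom calls 6 were among these genes, and of the 6 DESeq2 calls 5 were.

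The spread between embryos was large against the differences of the groups. The common coefficient of variation between embryos in the fit was 2.36. Each embryo gave a single library from a single part. Spread from the cutting or the library can therefore not be told apart from spread between embryos. On the scale of log2 of CPM + 1, the median SD within a group was 3.39 and the median difference of the group means was 1.42, without regard to sign. The difference exceeded the SD in 545 genes, which is 18.1% of those tested. Genes read in all 8 libraries varied less, with a median SD of 1.6 and a median difference of 0.84, and the difference exceeded the SD in 105 of 417 genes (25.2%). None of the 417 was called by edgeR, and 6 had an unadjusted p below 0.05.

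The width of the intervals says which differences the main fit could have missed. Its spread was estimated over 40 libraries, so the widths belong to that fit and not to the 8 embryos alone. They may also depend on the setting of the test. Its F test gave 38 genes with an unadjusted p below 0.05, against 291 with bias-adjusted deviance. The 95% interval of the log2 change, from the standard error that the F test implies, reached a median of 5.67 to either side over all tested genes, 6.29 for genes read in 4 or 5 libraries, 4.88 for those read in 6 or 7 and 2.89 for those read in all 8. The interval lay wholly within a log2 change of 1 to either side for 10 genes and within 2 for 48 genes, all of them among the 417. For the other genes the interval extended past a log2 change of 2 in at least 1 direction, so the absence of a call does not show that the groups were alike.

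**Figure D4:**
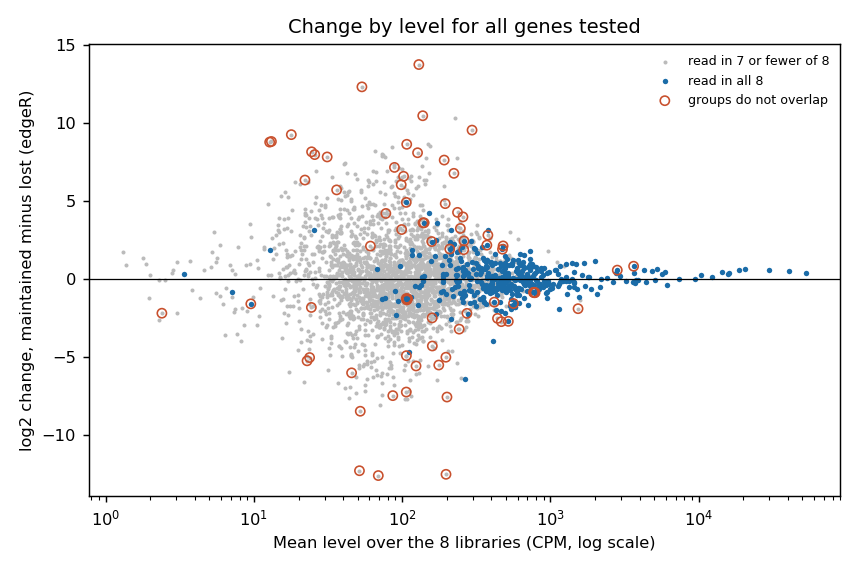
Fitted log2 change, maintained minus lost, against the mean level over the 8 libraries (CPM, log scale) for the 3019 genes tested, with the 417 genes read in all 8 libraries in blue and the genes whose groups did not overlap circled. The spread narrows with level, and the 4 identifiers with 0 or 1 count in a group are among those at the upper and lower edges.

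Embryos of an outcome were about as alike as embryos of different outcomes. Across the 3019 tested genes, Spearman's rho between libraries had a median of 0.3 (range 0.22 to 0.48) in 6 pairs of maintained embryos and 0.26 (0.21 to 0.33) in 6 pairs of lost embryos. In 16 pairs of a maintained and a lost embryo it had a median of 0.26 (0.21 to 0.38). These values are across genes, which are not independent replicates, and each library enters several pairs. The highest value joined maintained replicates 5 and 7, the libraries with the most genes. Maintained replicate 7 had a rho of 0.38 with each of lost replicates 2 and 3, above its 0.31 and 0.30 with maintained replicates 4 and 6. Among the 417 genes read in all 8 libraries the medians were 0.5, 0.48 and 0.46 in the same order, so the most widely read genes also varied in rank between embryos of 1 outcome.

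The lists of genes read gave the same picture. Of the genes read in either library of a pair, a median of 28.9% were read in both for maintained pairs, 31.2% for lost pairs and 30.8% for mixed pairs. The highest share was again that of maintained replicates 5 and 7, at 49.5%.

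**Figure D5:**
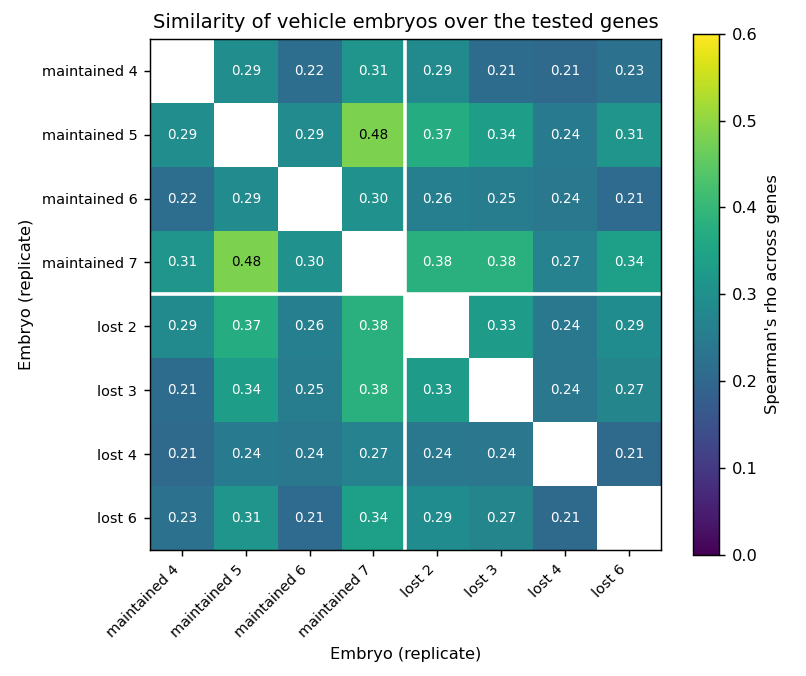
Spearman's rho across the 3019 tested genes between each pair of the 8 vehicle embryos, with white lines between the maintained and the lost embryos. The pair of maintained replicates 5 and 7 has the highest value, 0.48, and values between the outcomes are as high as 0.38.

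Putting the shallow libraries back changed the result of the gene test. With all 45 libraries in the fit and 5 vehicle embryos in each group, edgeR called 14 of the 3019 genes (0.464%), 1 higher and 13 lower in maintained embryos. In all 13 genes called lower, lost replicate 5 had the highest CPM of the 10 embryos, and in the 1 called higher maintained replicate 8 had it. None of the 4 identifiers above was among them, with adjusted p from 0.413 to 0.637 (edgeR).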

How the data were processed

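Total RNA of single demi-blastocysts was isolated with the RNeasy Micro kit, and libraries were built with a NuGEN Ovation SoLo system that depletes chosen bovine transcripts, per the labels' protocols. The authors deposited whole-number counts per gene, not normalized, for 45 libraries. The submitters' processing notes name UMD3.1, bosTau8 and edgeR. The aligner, the counting program, strand use and the treatment of duplicate reads were not given in the sources used here. Overlapping genes and near-identical copies could therefore not be marked.

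Groups came from the outcome and culture labels, and each embryo was 1 replicate. The labels used here name no sire, dam, recipient or batch, so p-values measure only the spread between these embryos. Genes with 10 or more counts in at least 4 of the 8 libraries compared were tested. The 40 libraries above 1000000 counts entered 1 fit with 6 groups of outcome and treatment, so that all share the estimate of the spread (R 4.3.3, edgeR 4.0.16, TMM scaling, robust quasi-likelihood test, Benjamini-Hochberg adjustment at 0.05). TMM factors of the 8 libraries lay between 0.89 and 1.2. Alternatives used DESeq2 1.42.0 and limma 3.58.1. Library measures were compared with scipy 1.17.1 by exact permutation.

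The planned gene lists, lineage levels, and shares of mitochondrial and ribosomal protein genes need symbols and were not run. The fallback rule named the 2 identifiers with the smallest p in each direction. The comparison and the lists were chosen with earlier results of these data known. Low counts limit precision, and intervals of counts cover counting error only.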

Additional observations from a re-analysis of the deposited data

Results flagged for a closer look

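In groups of 4 or 5 embryos, a library was marked when its gap to the nearest other exceeded Dixon's 95% critical value. For normally distributed values, chance does so in about 1 of 20 groups. CPM of the 4 identifiers are not such values, since these were chosen for their separation and many libraries held no count. The rate therefore does not apply to their marks. In all, 15 groups were examined and 4 were marked. In lost replicate 4 the 100 most abundant genes held 56.1% of the counts, against 38.3% in the nearest lost embryo. ENSBTAG00000006471 stood at 855 CPM in lost replicate 4 and at 306 CPM in the nearest lost embryo. The same gene had 0.163 CPM (1 count) in maintained replicate 7 and none in the other maintained vehicle embryos, where any single count would have been marked, so the rate of chance marks does not apply. It had 6.06 CPM in maintained CSF2 replicate 3 and 0.592 CPM in the nearest maintained CSF2 embryo.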

How the results depend on the processing

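The count of 0 called genes was the same in edgeR with DESeq2's size factors, library totals, no filter, a stricter filter, only the 8 libraries or only vehicle libraries in the fit, an adjusted p of 0.10, bias-adjusted deviance (added after seeing the data) and each of the 8 libraries left out in turn. It was 6 with DESeq2 (4 higher, 2 lower in maintained embryos), 7 with limma voom (3 and 4) and 14 with all 45 libraries (1 and 13). DESeq2 gave no adjusted p for 71 genes. The cause of the difference between the tools was not tested. The stricter filter left out the 4 named identifiers. With the replicate block, which rests on numbers 4 and 6 alone, 0 genes were called and 125 had an unadjusted p below 0.05, and the fitted log2 change of ENSBTAG00000012272 was 11.81 against 13.72. Deviations of same-numbered embryos had correlations of 0.021 and -0.03 across genes. With 2 pairs these values cannot show whether a number marks anything shared, and the labels do not say what it marks. With each library left out in turn, non-overlapping genes numbered 57 to 120 higher and 44 to 128 lower, where fewer embryos make overlap less likely by construction; the lower count of 128 came without lost replicate 4 and the higher of 120 without maintained replicate 4. The mean differences, maintained minus lost, ran from -362369 to 624602 counts in the total, from -143 to 1029 in genes read and from 1.14 to 7.7 percentage points in the share of the 100 most abundant genes. The total turned without maintained replicate 5 (-275942) or lost replicate 4 (-362369), and genes read without maintained replicate 7 (-143) or lost replicate 4 (-78.4). Fitted changes against a group with no count rest on edgeR's prior count, so their steadiness says nothing of stability.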

Other observations

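The 5 maintained CSF2 embryos and the 1 lost CSF2 embryo were not part of the contrast, and they were read for the genes whose vehicle groups did not overlap. The mean log2 of CPM + 1 of the maintained CSF2 embryos was above the lost CSF2 embryo in 24 of the 39 genes higher in maintained vehicle embryos (61.5%), with a median difference of 1.29. The same was so for 19 of the 35 genes lower in maintained vehicle embryos (54.3%), with a median difference of 0.01. Over all 3019 tested genes it was so for 54.4%, with a median difference of 0.36. These values describe a single lost embryo, and no test was made.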
